A study of Mus musculus with 4 samples.

Results

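Glycolysis and hypoxia-responsive genes were examined in T29, a thymic lymphoma line of the mouse that lacks Ikaros according to the series' design text. The set holds 35 genes listed by symbol. A gene was represented by the probe set that named it alone and had the highest mean over the arrays. That gave a value for 31 of the 35 genes, among 18193 genes in all, and 30 of the 31 lay above the level below which genes were not tested. Gpi1 and Eno1 matched no probe set by symbol, and Gapdh and Bnip3l were named only on probe sets shared with pseudogenes or, for Gapdh, on array controls. These 4 genes were not analysed here. Eno2, the neuronal form of enolase, was below the floor, at 3.72 and 3.55 with 4OHT against 3.60 and 3.62 with ethanol (log2 values), and was not tested.

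The groups were T29 cells carrying MigR1-MLER and given 100 nM 4OHT (2 arrays), and T29 cells carrying MigR1-MLER and given ethanol (2 arrays), both for 24 h. MigR1-MLER is a retroviral construct that encodes an inducible form of dominant-negative Mastermind, a decoy that sits on the Notch complex and keeps it from activating transcription. 4OHT (4-hydroxytamoxifen) is the ligand used to switch on such inducible proteins. Both groups come from 1 cell line and share the construct, and no sample without it was analysed, so an effect of 4OHT itself cannot be told apart from that of the induced protein. Nothing in the labels ties the replicates to separate cultures. P-values therefore measure only the spread between these arrays, which may be technical.

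Glycolysis turns glucose into pyruvate in the cytosol, and dividing T cells and T-cell leukaemias run it at a high rate even in the presence of oxygen. Hypoxia-inducible factor 1 (HIF-1) is a DNA-binding pair of Hif1a and Arnt. In oxygen, the prolyl hydroxylases encoded by the Egln genes mark HIF-1 alpha for destruction, and at low oxygen the factor accumulates and raises the transcription of glucose transporters, nearly every glycolytic step, and genes for survival, collagen modification and vessel growth. Notch signalling and its target Myc are known to raise glucose uptake and glycolytic genes in immature T cells. The comparison asks whether these genes respond when Notch-dependent transcription is blocked.

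HIF-1 binds a short DNA core that reads ACGTG, with GCGTG as its variant. The promoters of the 4 tested members with the largest change between groups are shown. They were chosen by the size of the change and not by their sequence, and each holds ACGTG. These genes encode the glucose importer, the lactate exporter, a glycolytic activator and a HIF-responsive ankyrin-repeat protein. Each line gives the 250 bases before the transcript start, read 5′ to 3′ along the gene from RefSeq sequence of build GRCm38.p6, with ACGTG and its variant GCGTG in capitals, on either strand. They lie at chr2:11553930-11554179 on the minus strand for Pfkfb3, chr4:119108495-119108744 on the plus strand for Slc2a1, chr11:120948817-120949066 on the plus strand for Slc16a3 and chr8:45999851-46000100 on the minus strand for Ankrd37.
Pfkfb3: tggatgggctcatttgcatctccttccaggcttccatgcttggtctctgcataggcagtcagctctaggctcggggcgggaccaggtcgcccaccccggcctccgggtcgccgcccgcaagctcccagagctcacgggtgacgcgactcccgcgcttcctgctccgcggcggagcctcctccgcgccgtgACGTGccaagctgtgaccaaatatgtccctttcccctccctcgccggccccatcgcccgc
Slc2a1: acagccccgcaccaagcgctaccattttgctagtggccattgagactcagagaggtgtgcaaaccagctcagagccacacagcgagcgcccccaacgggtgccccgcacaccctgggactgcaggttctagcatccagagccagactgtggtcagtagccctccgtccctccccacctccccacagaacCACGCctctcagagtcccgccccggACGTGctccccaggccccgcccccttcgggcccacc
Slc16a3: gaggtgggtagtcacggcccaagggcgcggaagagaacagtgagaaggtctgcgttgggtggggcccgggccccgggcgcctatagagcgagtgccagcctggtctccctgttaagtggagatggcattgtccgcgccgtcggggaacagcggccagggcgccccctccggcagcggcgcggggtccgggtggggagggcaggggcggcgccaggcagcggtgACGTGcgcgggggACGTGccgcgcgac
Ankrd37: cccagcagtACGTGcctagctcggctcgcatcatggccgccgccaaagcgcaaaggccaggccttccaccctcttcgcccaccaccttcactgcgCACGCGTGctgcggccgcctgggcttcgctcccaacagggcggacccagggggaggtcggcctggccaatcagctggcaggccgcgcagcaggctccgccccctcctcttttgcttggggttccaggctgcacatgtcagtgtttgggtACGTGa
Pfkfb3 has 2 start sites in the RefSeq table, and the first listed is shown. The match nearest to the transcript start begins 60 bases before it in Pfkfb3, 36 in Slc2a1, 14 in Slc16a3 and 6 in Ankrd37.

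A longer window, running past the start, was searched on both strands for 32 members that had one, taking the first listed start of each gene. The core ACGTG was found in 19 of the 32 windows (59.4%), against 19.7% of 27025 genes. Those are all genes with a window, expressed in these cells or not, and they were not matched to the members in base composition. GCGTG was found in 17 (53.1%), against 32.5% of all genes. The E-box CACGTG, which MYC and its partners bind and which contains ACGTG, was found in 5 (15.6%), against 7.24%. TGGGAA, the core bound by the Notch partner RBPJ, was found in 4 (12.5%), against 25.5%. Next by size of change after the promoters shown came Pfkp and Hk2, with 0 and 2 matches to ACGTG. Whether matches go with the size of the change was not tested. These are letter matches in a short window and describe the sequences, not binding.

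The arrays gave T29 cells the profile of T cells, with 11 of 13 T-cell markers above the floor and Cd2 and Cd5 below it. Of the markers of other lineages, 2 of 6 for B cells, 1 of 7 for myeloid cells, 2 of 4 for erythroid cells and 4 of 9 for stroma, endothelium and epithelium were above it. The summed linear level of the erythroid markers was 206 on both 4OHT arrays against 245 and 274 on the ethanol arrays, led by Epor, with Alas2 and Hba-a1 below the floor. That of the stroma, endothelium and epithelium markers, led by Pdgfrb, was 813 and 962 on the 4OHT arrays against 778 and 787 on the ethanol arrays. Of the T-cell markers, Cd8a and Cd247 were called higher and Cd3g and Ptcra lower with 4OHT, and of the stroma, endothelium and epithelium markers Pecam1 was called higher. The part of these lists in the results was not tested. As a measure of RNA quality, the Actb control at the 3′ end exceeded that at the 5′ end by 0.40 to 0.49 (log2) on all arrays. The same difference for the transferrin receptor control was 1.45 and 1.73 with 4OHT against 1.33 and 1.97 with ethanol. That difference was larger in replicate 2 of both groups, where most members were also higher. For the Gapdh control it was -0.03 and -0.03 with 4OHT against -0.07 and 0.03 with ethanol. For 18S RNA it was 0.90 and 0.82 with 4OHT against 0.05 and 0.32 with ethanol, and so differed between the groups. The part of these differences in the results was not tested. Ethanol replicate 1 stood apart in the 18S control, with its 5′ probe set at 8.02 against 6.35 to 6.78 elsewhere. The same array stood apart in the transferrin receptor control, at 8.27 against 6.99 to 7.33 for the 5′ probe set and 9.60 against 8.78 to 8.96 for the 3′ one. Notch targets were read as a check of the labels. Dtx1, a standard Notch target, was at 6.01 and 6.01 with 4OHT against 9.41 and 9.43 with ethanol. Hes1, a Notch-driven repressor gene, was at 7.30 and 7.20 with 4OHT against 8.77 and 8.52 with ethanol. In limma both fell (adjusted p = 0.000506 and 0.00945), and Hes1 lost its call without 4OHT replicate 1 (adjusted p = 0.0686) or 4OHT replicate 2 (adjusted p = 0.0585).

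None of the 30 tested members passed the test between groups, in a fit that did not use the replicate number, although most ranked the 4 arrays in a similar order. Calls were made in limma where p, adjusted over 11581 tested genes, was under 0.05. They included 0 of 30 members, against 7.47% of all genes tested, of which 3.57% were lower and 3.9% higher with 4OHT. At an unadjusted p under 0.05 there were 3, all lower with 4OHT (Slc2a1, Slc16a3 and Egln1), against 13.2% of all genes lower at that level. The change was below 0 for 25 of 30 members, against 52.3% of all genes, and the median change was -0.23 on the log2 scale, against -0.01 over all genes. Both 4OHT arrays lay below both ethanol arrays for 9 of the 30, against 30.2% of all genes, and the groups did not overlap in either direction for 11, against 56.9%. In RNA from whole cultures, fewer expressing cells and less RNA per cell cannot be told apart.

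The replicates of a group lay far apart for many of these genes. The 4OHT replicates differed by 0.5 or more on the log2 scale, a 1.41-fold difference, in 17 of 30 members (56.7%), against 3.29% of all genes tested. In all 17, replicate 2 was the higher one, against 2.1% of all genes with replicate 2 higher and 1.19% with it lower. The ethanol replicates differed by that much in 8 of 30 members (26.7%), against 3.01% of all genes, again with replicate 2 higher in each (2.07% of all genes had it higher and 0.941% lower). These 8 genes are Slc2a3, Slc16a3, Hk2, Pfkl, Pfkp, Pfkfb3, P4ha2 and Plod2. Each of them also passed 0.5 between the 4OHT replicates, against 0.596% of all genes that did so in both groups. For Pfkp, Pfkl, Slc2a3 and Pfkfb3 this held for the chosen probe set but not for every other one above the floor. Ethanol differences there went down to -0.11, -0.24, -0.26 and 0.02, in that order. The other Plod2 probe set gave 0.77, and Slc16a3, Hk2 and P4ha2 had 1 probe set each. With 1 array against 1, these differences carry no test.

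**Figure D1:**
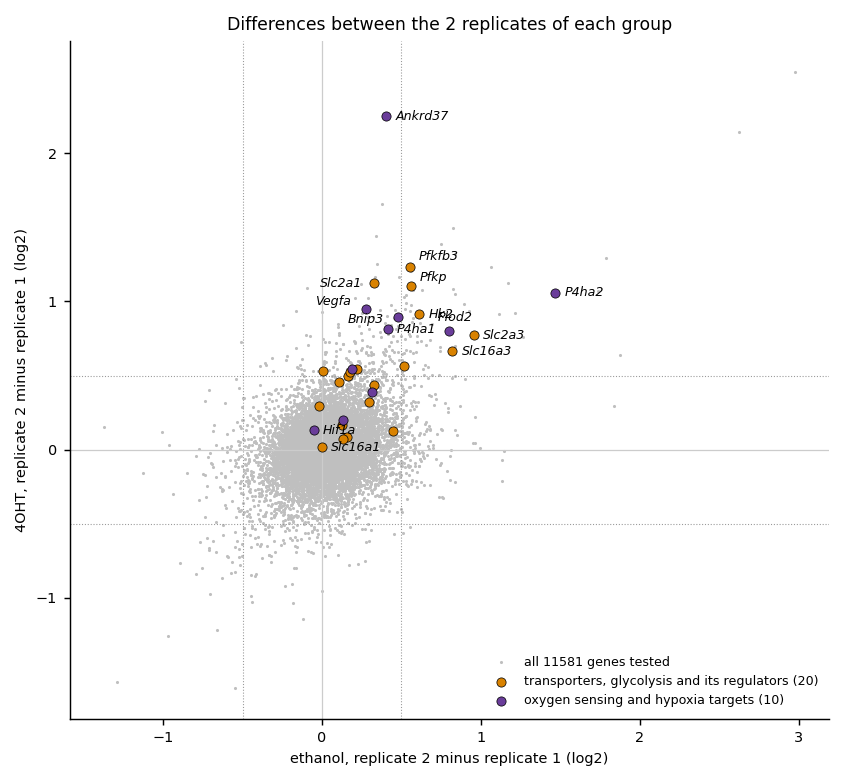
Difference between replicate 2 and replicate 1 on the log2 scale, within the 4OHT group (vertical axis) and within the ethanol group (horizontal axis), for all 11581 genes tested (grey) and the 30 members (coloured); dotted lines mark 0.5. Of the members, 17 lie above the upper line, 8 also lie to the right of the right-hand line, and none lies beyond either lower line.

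Replicate 2 was above replicate 1 by any amount in all 30 members with 4OHT, against 53.4% of all genes, and in 28 of 30 with ethanol, against 54.6%. Hif1a and Ldha were the 2 exceptions. The lowest value was on 4OHT replicate 1 for 26 of 30 members, against 28.4% of all genes, and the highest on ethanol replicate 2 for 21, against 28.2%. Relative to each gene's own mean over the 4 arrays, the median member was at -0.37 and 0.15 on the 4OHT arrays, against -0.02 and 0.27 on the ethanol arrays. Over all genes tested the same medians lay between -0.01 and 0.02. The sign of the median change depended on 4OHT replicate 1: without that array the median change of the members was 0.04, and without 4OHT replicate 2 it was -0.42.

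**Figure D2:**
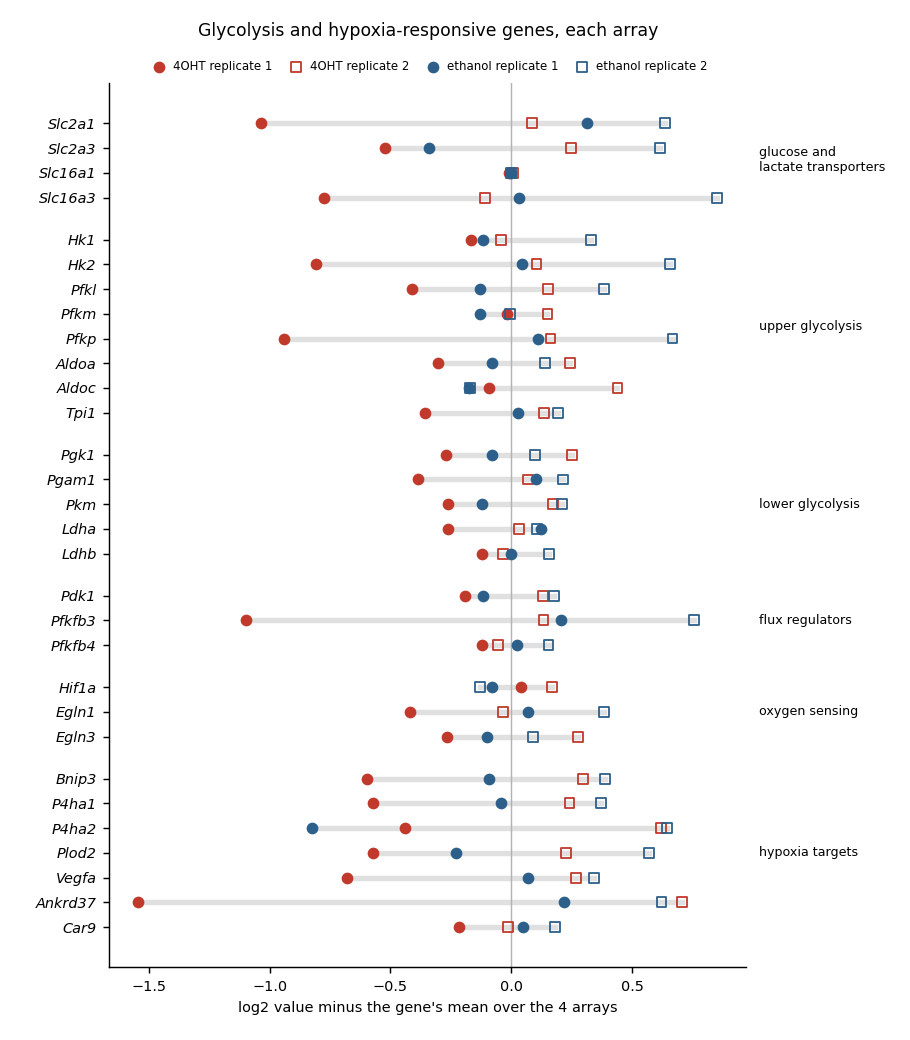
Log2 value of each tested member on each array, minus the gene's mean over the 4 arrays, with members grouped by role. Filled symbols are replicate 1 and open squares replicate 2, in red for 4OHT and blue for ethanol; 4OHT replicate 1 is the leftmost symbol for 26 of 30 genes and ethanol replicate 2 the rightmost for 21.

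The transporters that bring glucose in and carry lactate out included 2 of the largest differences between groups. Slc2a1 encodes GLUT1, the main glucose importer of dividing T cells. It was at 8.99 and 10.11 with 4OHT against 10.34 and 10.66 with ethanol, so the groups did not overlap, and 4OHT replicate 1 stood well below the other arrays. Its change was -0.95 ± 0.36 (log2, SE; 95% interval -1.85 to -0.05; limma adjusted p = 0.178), and it was -0.39 without 4OHT replicate 1 and -1.51 without 4OHT replicate 2. Its other probe sets gave changes of -1.06 and -0.97 and replicate differences of 1.24 and 1.18 with 4OHT. Slc16a3 encodes MCT4, a lactate exporter induced by hypoxia, and was at 6.23 and 6.90 with 4OHT against 7.04 and 7.86 with ethanol. The groups did not overlap here either, and both had a wide spread (change -0.88 ± 0.33, adjusted p = 0.171). The change was -0.55 without 4OHT replicate 1 and -0.47 without ethanol replicate 2.

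Slc2a3, for the high-affinity transporter GLUT3, followed the replicate number more than the treatment, at 8.79 and 9.57 with 4OHT against 8.98 and 9.93 with ethanol. The groups overlapped, and the change was -0.28 ± 0.38 (adjusted p = 0.69). Slc16a1, for the monocarboxylate transporter MCT1, had almost the same value on every array, at 12.53 and 12.54 with 4OHT against 12.54 and 12.54 with ethanol. Its change had a 95% interval from -0.21 to 0.21. A second and much dimmer Slc16a1 probe set was less even, with 4OHT replicates 0.53 apart.

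Among the enzymes of the upper, energy-consuming steps, the widest differences between groups lay in the isoforms Hk2 and Pfkp. Hk2 encodes the inducible hexokinase that traps glucose in the cell. It was at 8.71 and 9.62 with 4OHT against 9.56 and 10.17 with ethanol, with 4OHT replicate 2 between the ethanol arrays (change -0.70 ± 0.34, adjusted p = 0.268). Its change was -0.25 without 4OHT replicate 1, -0.40 without ethanol replicate 2 and -1.16 without 4OHT replicate 2. Hk1, the constitutive hexokinase, had a change of -0.21 ± 0.16, and its ethanol replicates differed by 0.45 against 0.12 for the 4OHT replicates. Pfkp, the platelet form of phosphofructokinase, was at 8.87 and 9.98 with 4OHT against 9.93 and 10.48 with ethanol (change -0.78 ± 0.38, adjusted p = 0.272). The groups overlapped by a narrow margin, and the change was -0.23 without 4OHT replicate 1, -0.50 without ethanol replicate 2 and -1.33 without 4OHT replicate 2.

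The other phosphofructokinase subunits spread less between the 4OHT replicates. Pfkl, the liver form, was at 10.82 and 11.38 with 4OHT against 11.10 and 11.61 with ethanol, and the groups overlapped (change -0.26 ± 0.24). Its replicate differences were 0.56 with 4OHT and 0.51 with ethanol, the latter close to that of Pfkp (0.56). Pfkm, the muscle form, had a change of 0.13 ± 0.10 and replicate differences of 0.17 with 4OHT and 0.12 with ethanol. Whether the subunit genes differ from each other was not tested.

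Aldoa, the main aldolase gene, was at 12.76 and 13.31 with 4OHT against 12.99 and 13.21 with ethanol, with the 4OHT arrays on either side of the ethanol ones. Aldoc, the brain-type aldolase, was at 6.64 and 7.17 with 4OHT against 6.56 and 6.56 with ethanol. It was the 1 member besides Hif1a with both 4OHT arrays above both ethanol arrays (change 0.35 ± 0.18, adjusted p = 0.297), by 0.079 without 4OHT replicate 2 and 0.61 without 4OHT replicate 1. Tpi1, which interconverts the aldolase products, lay just under the 0.5 mark, with 4OHT replicates 0.49 apart and a change of -0.22 ± 0.18.

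The enzymes of the lower, energy-yielding steps moved by little between groups and shared the low 4OHT replicate 1. Changes ran from -0.32 in Pgam1, the phosphoglycerate mutase gene, to -0.02 in Pgk1, and 4OHT replicate 1 was the lowest array for all 5 genes tested. Pgk1, phosphoglycerate kinase, was at 13.27 and 13.79 with 4OHT against 13.46 and 13.64 with ethanol, and the 4OHT arrays enclosed the ethanol ones. Ldha, the lactate dehydrogenase subunit that favours lactate formation, was at 13.14 and 13.43 with 4OHT against 13.52 and 13.51 with ethanol. Its groups did not overlap, and its ethanol replicates agreed to within 0.02 (change -0.23 ± 0.12, adjusted p = 0.301). The change was -0.083 without 4OHT replicate 1 and -0.38 without 4OHT replicate 2. Ldhb, the subunit that favours the return to pyruvate, had a change of -0.16 ± 0.10, and Pkm, pyruvate kinase, of -0.09 ± 0.18.

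Of the regulators of flux, Pfkfb3 had the largest change of the 30 members with all arrays kept, but in none of the fits that left out 1 array. Its product makes fructose 2,6-bisphosphate, the strongest activator of phosphofructokinase. It was at 7.68 and 8.91 with 4OHT against 8.98 and 9.53 with ethanol. The groups were separated by less than 0.1 while the 4OHT replicates were 1.23 apart, and the change of -0.96 ± 0.41 did not pass (adjusted p = 0.221). It was -0.35 without 4OHT replicate 1 and -1.58 without 4OHT replicate 2. A second Pfkfb3 probe set gave -0.70, with replicate differences of 1.18 with 4OHT and 0.02 with ethanol. Pfkfb4, a relative with both kinase and phosphatase activity, had a change of -0.18 ± 0.09. Pdk1, the kinase that shuts pyruvate out of mitochondria, had a change of -0.06 ± 0.15 and nearly equal replicate differences of 0.32 with 4OHT and 0.29 with ethanol. Its other probe sets were less equal, with differences of 0.43, 0.31 and 0.42 with 4OHT against 0.03, 0.23 and 0.13 with ethanol.

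**Figure D3:**
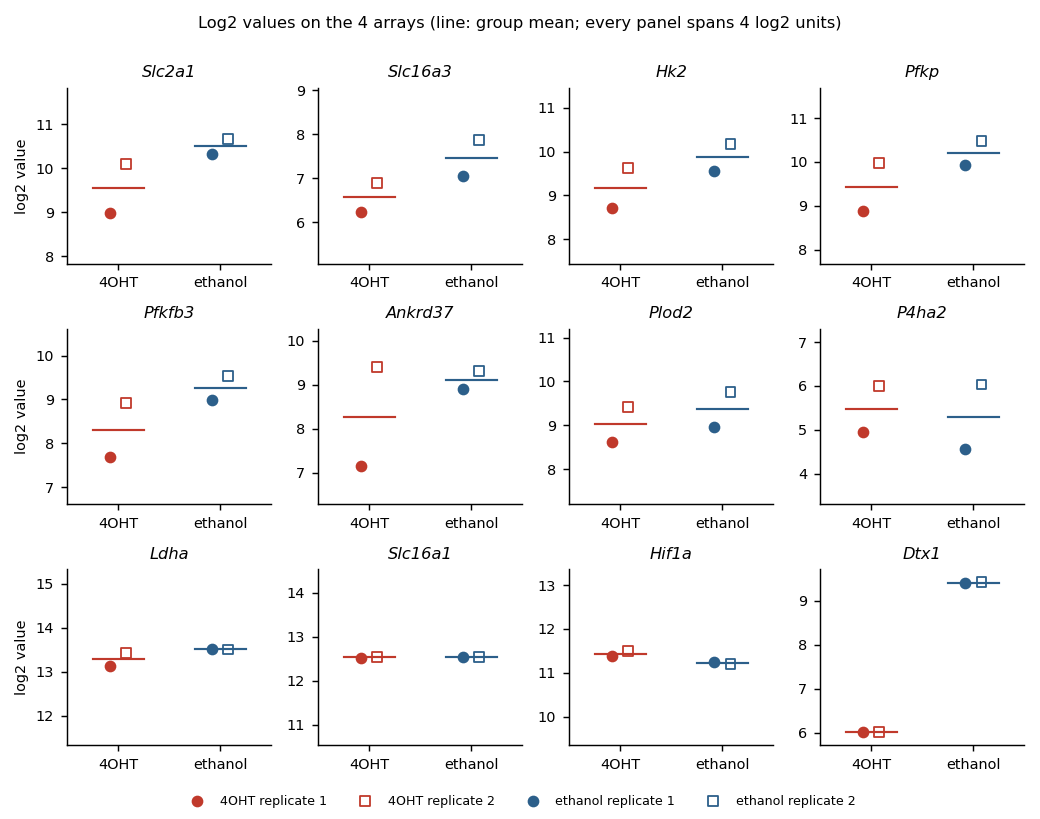
Log2 values on the 4 arrays for 11 members and the Notch target Dtx1, with 4OHT at the left and ethanol at the right of each panel, symbols for single arrays and lines for group means. In Slc2a1, Hk2, Pfkp, Pfkfb3 and Ankrd37 the 2 4OHT arrays lie 0.91 to 2.25 apart, whereas those of Dtx1 coincide.

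None of the 3 genes of oxygen sensing passed the test. Hif1a, which encodes the oxygen-labile subunit of HIF-1, was at 11.38 and 11.51 with 4OHT against 11.26 and 11.21 with ethanol. Both 4OHT arrays lay above both ethanol arrays (change 0.21 ± 0.09, adjusted p = 0.233), and its other probe sets above the floor gave changes of 0.30 and -0.00081. Regulation of HIF-1 alpha by oxygen acts mainly on the protein, which arrays do not measure. Egln1, for the main prolyl hydroxylase PHD2 and itself a HIF target, was at 9.97 and 10.36 with 4OHT against 10.46 and 10.77 with ethanol. The groups did not overlap (change -0.45 ± 0.17, adjusted p = 0.176), and a second probe set gave -0.28. Egln3, for the hypoxia-induced hydroxylase PHD3, was at 11.46 and 12.01 with 4OHT against 11.63 and 11.82 with ethanol, a change of 0.01 ± 0.19.

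The hypoxia targets outside glycolysis had the widest gap between the 4OHT replicates, with 6 of 7 tested genes past 0.5 and a median of 0.89, against 0.41 between the ethanol replicates. Ankrd37, for a small ankyrin-repeat protein strongly induced by HIF-1, was at 7.15 and 9.40 with 4OHT against 8.91 and 9.31 with ethanol. The 4OHT replicates thus differed 4.75-fold, the second largest such difference with replicate 2 higher among the 11581 genes, while 4OHT replicate 2 was above both ethanol arrays. Its change of -0.84 ± 0.69 (adjusted p = 0.496) rests on 4OHT replicate 1, and without that array it was 0.29. Vegfa, the vascular growth factor gene, was at 7.64 and 8.59 with 4OHT against 8.39 and 8.66 with ethanol. Its change was -0.41 ± 0.31 (adjusted p = 0.451), and 0.06 without 4OHT replicate 1.

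Bnip3, for a mitochondrial protein that promotes mitophagy, was at 10.11 and 11.01 with 4OHT against 10.62 and 11.10 with ethanol. The groups overlapped, with a change of -0.30 ± 0.32. P4ha1 and P4ha2 encode catalytic subunits of the prolyl hydroxylase that stabilises collagen. P4ha1 was at 8.77 and 9.58 with 4OHT against 9.30 and 9.71 with ethanol (change -0.33 ± 0.29). P4ha2 was at 4.95 and 6.01 with 4OHT against 4.57 and 6.04 with ethanol, so that both replicates 2 stood at nearly the same level above both replicates 1. It ranked 7th of all genes by the smaller of its 2 replicate differences, although its replicate 1 values lie near the floor.

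Plod2, the lysyl hydroxylase of collagen, was at 8.63 and 9.42 with 4OHT against 8.97 and 9.77 with ethanol. The replicates of both groups were 0.80 apart, and the change was -0.34 ± 0.35 (adjusted p = 0.583). Car9, for the surface carbonic anhydrase used as a hypoxia marker, stayed dim, at 4.84 and 5.04 with 4OHT against 5.10 and 5.24 with ethanol.

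**Figure D4:**
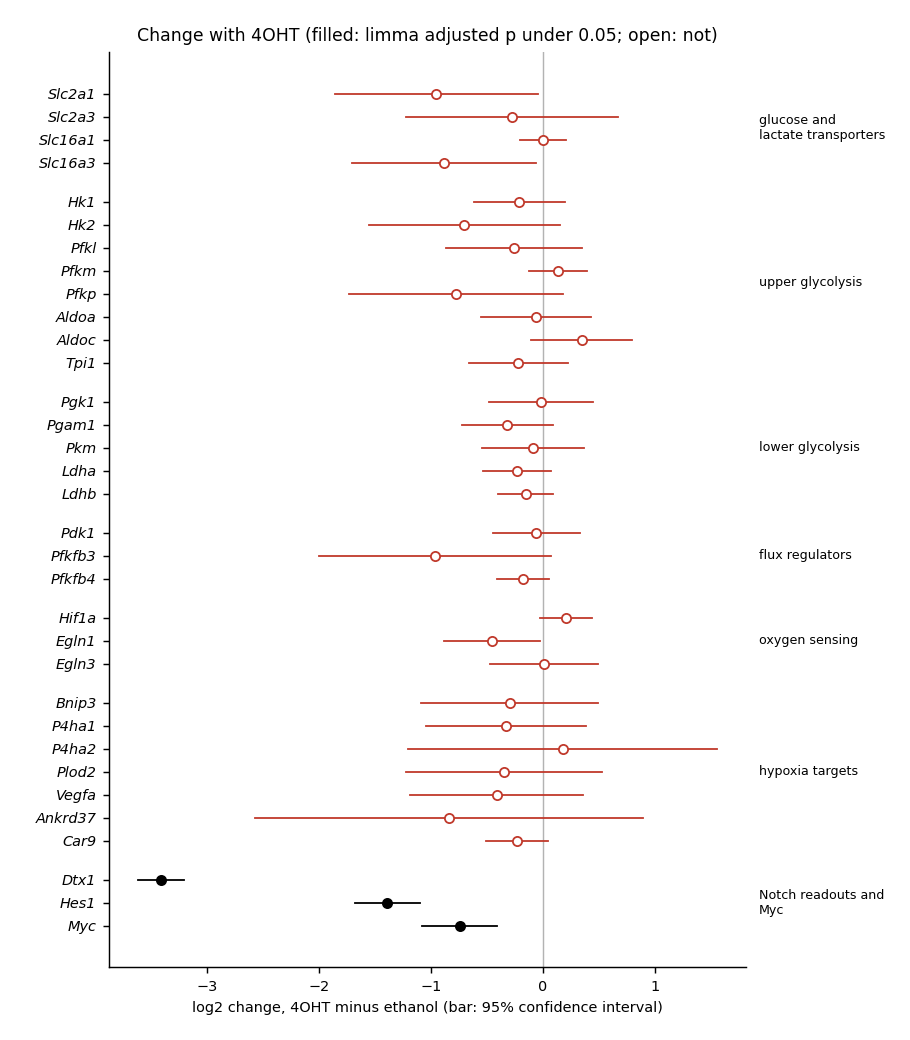
Log2 change, 4OHT minus ethanol, with 95% intervals from limma for the 30 members (red) and for Dtx1, Hes1 and Myc (black); filled points have an adjusted p under 0.05. None of the members is filled, while Dtx1, Hes1 and Myc are, and the intervals of 27 members include 0.

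The spread within groups was wide for these genes. The median within-group SD was 0.28 for the members and 0.10 over all genes tested. Myc, which is known to drive several of these glycolytic genes, was at 10.96 and 11.12 with 4OHT against 11.63 and 11.94 with ethanol. Its fall (change -0.74 ± 0.13, limma adjusted p = 0.0358) lost its call whichever array was left out, with adjusted p between 0.0591 and 0.167. The changes of Pfkfb3, Slc2a1, Slc16a3, Ankrd37 and Pfkp had larger estimates and larger SEs, and none passed.

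Other probe sets of the same genes were compared as well. Of 63 probe sets of the members above the floor, 63 were higher on 4OHT replicate 2 than on replicate 1, 53 were higher on ethanol replicate 2, and 54 had a change below 0. Probe sets disagreed in the sign of the change for 3 of 18 members with several (Hif1a, Slc2a3 and Pdk1).

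Neighbouring pathways were read from 3 further lists. Of 38 tested genes in a list of other hypoxia and HIF pathway genes, 11 had replicate 2 higher by 0.5 or more with 4OHT and 11 with ethanol. The shares over all genes tested were 2.1% and 2.07%. Stc2, for a secreted glycoprotein induced by hypoxia and stress and named after its values were seen, was at 5.88 and 7.38 with 4OHT against 7.79 and 8.61 with ethanol (adjusted p = 0.136). Car12, a carbonic anhydrase gene related to Car9, fell by 0.77 ± 0.13 (limma adjusted p = 0.0312), at 5.98 and 6.25 with 4OHT against 6.98 and 6.79 with ethanol. It was the 1 called gene of the 38 tested, against 3.57% of all genes called lower and 3.9% higher. Its call was lost whichever array was left out, with adjusted p between 0.071 and 0.141. With probe sets averaged per gene its change was -0.34 (adjusted p = 0.093). Adm, for the vasodilator peptide adrenomedullin, had a change of -0.73 ± 0.18 (adjusted p = 0.0774). The hydroxylase gene Jmjd6 had one of -0.40 ± 0.10 (adjusted p = 0.0846), and the nuclear receptor gene Rora one of 0.91 ± 0.27 (adjusted p = 0.105).

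Of 27 tested genes of other glucose metabolism, 1 rose and 1 fell, against 3.9% and 3.57% of all genes, which is about the same share, and the list median was -0.14. Fbp1, the gluconeogenic fructose bisphosphatase that opposes phosphofructokinase, was at 9.64 and 9.87 with 4OHT against 10.71 and 10.89 with ethanol. It fell 2.06-fold with close replicates (-1.04 ± 0.12, adjusted p = 0.0162). Pygl, a glycogen phosphorylase gene, rose 2.07-fold (1.05 ± 0.19, adjusted p = 0.0361), at 5.57 and 6.12 with 4OHT against 4.87 and 4.72 with ethanol, where it lay near the floor. Pygl lost its call whichever array was left out (adjusted p between 0.0612 and 0.112). Fbp1 kept it only without ethanol replicate 1 (adjusted p = 0.0455), and otherwise had an adjusted p between 0.055 and 0.0919. Bpgm, which makes the side product 2,3-bisphosphoglycerate, had a change of 0.53 ± 0.11 (adjusted p = 0.0514) and Galm, a sugar mutarotase gene, one of 0.45 ± 0.12 (adjusted p = 0.0818).

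None of 16 tested genes of the pentose phosphate pathway and of pyruvate entry passed in limma (4 at an unadjusted p under 0.05, all lower, against 13.2% of all genes lower at that level), and the median was -0.11. Rpia, ribose 5-phosphate isomerase, was nearest to the threshold, at 9.26 and 9.36 with 4OHT against 9.70 and 9.80 with ethanol (-0.44 ± 0.09, adjusted p = 0.0508). Pgd, a dehydrogenase of the oxidative branch, had a change of -0.34 ± 0.09 (adjusted p = 0.0825), the pyruvate dehydrogenase gene Dlat one of -0.33 ± 0.10 (adjusted p = 0.111) and Tkt, transketolase, one of -0.25 ± 0.08 (adjusted p = 0.141). In this list no gene had replicate 2 higher by 0.5 or more in either group.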

How the data were processed

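The authors deposited 1 log2 value for each probe set and array. RMA is the tool that the submitters' processing notes name, with no version given in the sources used here. The values lie between 2.25 and 14.6, which fits a log2 scale. RMA gives no detection call, and the number of arrays limits the precision. Of 45101 probe sets, 34945 named 1 gene in the platform annotation, 932 named several and 9160 besides 64 controls none. No symbol changed against RefSeq. Genes whose probe set averaged under the 40th percentile of named probe sets, 4.81, were not tested. The test between groups was limma's moderated test (version 3.58.1, under R 4.3.3; no block), with Benjamini-Hochberg adjustment over 11581 genes. SEs are limma's. The fit was tested on simulated data. The alternatives were other filters, normalizations, probe set choices, an intensity trend, a replicate block and each array left out.

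Members and lists were chosen with earlier results of these data known. Array values are given for members called, changed by 0.5 or more or with replicates 0.5 or more apart, and for Hif1a, Ldha and Slc2a1; other lists give up to 4 genes, called ones first, then by p. Values of further members, of Stc2 and in the closing section were picked after being seen.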

Additional observations from a re-analysis of the deposited data

How the results depend on the processing

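The labels give both groups replicates 1 and 2 without saying that a number marks a shared culture or day, so the numbers were not taken as pairs. Same-numbered arrays deviated in the same direction (r = 0.34 across 11581 genes and 0.48 across the 30 members; genes are not independent replicates). With the replicate number as a block, 7 of 30 members were called lower and 0 higher. Of all 11581 genes, 1031 were called lower, which is the count to set beside these 7. Another 1104 were called higher, and the 2 directions together make 18.4%, a share that is not the like of the members' lower calls. The 7 members in limma were Slc16a3 (-0.88, adjusted p = 0.000553), Pfkfb3 (-0.96, adjusted p = 0.00245), Hk2 (-0.70, adjusted p = 0.00253), Pfkp (-0.78, adjusted p = 0.00404), Slc2a1 (-0.95, adjusted p = 0.00432), Egln1 (-0.45, adjusted p = 0.0119) and Plod2 (-0.34, adjusted p = 0.0362). Called genes in the further lists numbered 6 in other glucose metabolism, 2 in the pentose phosphate list and 11 in the other hypoxia list.

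No member was called under any other setting. Leaving out 1 array gave 12 to 66 lower and 9 to 125 higher genes in all, 0 to 1 in other glucose metabolism and 0 to 1 in the other hypoxia list, and a member median from -0.42 to 0.04. In those fits the change crossed 0 for 11 of 19 named members: Aldoa (-0.34 to 0.21), Ankrd37 (-1.96 to 0.29), Bnip3 (-0.74 to 0.15), Egln3 (-0.26 to 0.28), P4ha1 (-0.74 to 0.077), P4ha2 (-0.56 to 0.91), Pfkl (-0.54 to 0.024), Pgk1 (-0.28 to 0.24), Plod2 (-0.74 to 0.054), Slc2a3 (-0.75 to 0.20) and Vegfa (-0.89 to 0.061). Egln3 was at -0.012 with median centring and Pgk1 at 0.0040 with quantile normalization. With an intensity trend, 636 genes were lower and 3 of the pentose phosphate list were called; that list had 1 call with the 60th percentile filter, quantile normalization, median centring or probe sets averaged per gene. The other hypoxia list had 0 calls with the 60th percentile filter and 2 without _x_at and _s_at probe sets. With the mean of probe sets, 5 members had ethanol replicates 0.5 apart. The causes were not tested.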

Other observations

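Genes outside the glycolysis and hypoxia lists also had replicate 2 above replicate 1 in both groups, and those named here were chosen after their values were seen. The immediate early transcription factor genes Jun and Fos had the widest gaps, and Egr1 lay the same way. Jun was at 5.42 and 7.97 with 4OHT against 5.81 and 8.79 with ethanol. Fos was at 5.38 and 7.53 with 4OHT against 6.13 and 8.76 with ethanol. Egr1 was at 5.77 and 6.85 with 4OHT against 6.07 and 7.81 with ethanol. Other stress-induced genes shared that order: Dusp1, a MAP kinase phosphatase gene, at 8.15 and 9.08 with 4OHT against 8.14 and 9.36 with ethanol, and Ppp1r15a, at 7.43 and 8.51 with 4OHT against 7.94 and 8.76 with ethanol. Histone genes lay on both sides: H1f2 was at 9.80 and 10.93 with 4OHT against 9.08 and 10.25 with ethanol, and H3c4 at 8.71 and 7.15 with 4OHT against 8.43 and 7.14 with ethanol.

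Not every stress gene of the hypoxia list followed that order. Ddit4, an inhibitor of mTORC1 induced by hypoxia and other stresses, was at 9.44 and 9.59 with 4OHT against 11.31 and 9.94 with ethanol, with ethanol replicate 1 standing apart. The Gapdh array controls, which were not used as members, had 4OHT replicate 1 as the lowest array in each of 3 probe sets, with 4OHT replicate 2 higher by 0.16 to 0.17. The 3′ control was at 13.94 and 14.10 with 4OHT against 14.00 and 14.10 with ethanol. The 5′ control was at 13.97 and 14.14 with 4OHT against 14.07 and 14.07 with ethanol, and the middle one at 13.97 and 14.14 with 4OHT against 14.09 and 14.15 with ethanol.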
